A study of Rattus norvegicus with 8 samples.

Results

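The genes described here are 10 genes that mark astrocytes or glia responding to injury, out of 12765 genes with a named probe in the authors' value table. They were taken as a named list, 6 homeostatic genes (Aqp4, Gjb6, Agt, Slc1a2, Slc1a3 and Aldh1l1) and 4 reactive genes (Gfap, Vim, Serpina3n and Cd44). Each array accession was named through RefSeq, and where a gene had several probes the one with the highest average level was read. All 10 genes had a probe, with 17 probes in all.

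Rat tissue and cells were measured on 8 one-colour Agilent expression arrays, 1 array for each of 8 groups. The cord groups, both 5 days after an event that the labels call an injection and the protocol an injury, were a spinal cord dorsal hemisection and a C-level control. The nerve groups, 1 day after the left sciatic nerve was cut, were its distal segment, its proximal segment and the contralateral right nerve, whose label mentions a PBS injection site. The culture groups were primary Schwann cells stimulated with S100A8/A9 (5 µg/ml) during 1 h or 24 h, and unstimulated cells of the 24 h time, so both times stood against 1 culture. All animals were Sprague-Dawley, the nerve and cord donors were adult females, and each nerve or cord array held RNA pooled from 3 animals. The Schwann cells came from newborn pups, had been cleared of fibroblasts and passaged, and had grown with forskolin in all groups. The labels do not say whether dorsal hemisection names an operation or the piece of cord taken, so the cord pair may differ in region as well as in injury.

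Astrocytes are the glia of brain and spinal cord that take up glutamate and potassium, move water at vessels and couple to one another through gap junctions. After injury they become reactive: intermediate filament and acute phase genes are known to go up, while genes of the resting functions may go down. Peripheral nerve has no astrocytes. Its glia are Schwann cells, which share some of these genes, and non-myelinating and cultured Schwann cells are known to make Gfap and vimentin.

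Upstream sequences from RefSeq (GRCr8, the 250 bases before a gene's start, read 5′ to 3′ on the gene's strand) were held for 9 of the 10 genes, all but Agt, and covered 14 starts. Both strands were searched for TTCNNNGAA and TTCNNNNGAA, the palindromes that STAT factors are known to bind, for GGGNNTTTCC of the NF-kB kind and for TGAGTCA of the AP-1 kind. No 2 of these motifs overlapped in a match. Of 33469 rat promoters, 7.7% held TTCNNNGAA, 6.3% held TTCNNNNGAA, 1.3% held GGGNNTTTCC and 4% held TGAGTCA. The longer palindrome was found upstream of Gfap, of the first start of Slc1a2 and of the second start of Gjb6, and the shorter one upstream of Serpina3n. No match to the 4 motifs was found in these windows for Aqp4, Slc1a3, Aldh1l1, Vim and Cd44. The following 3 are shown because they belong to the one of the 10 genes that was most increased in cord, to the classic marker of reactivity and to the one of the 10 that was most decreased there. For Gjb6, the latter, the window of the second start is shown because it holds a match, while that of the first start holds none. Capitals mark the match, which lies 123 bases before the start in Serpina3n (chr6:129088142-129088391, plus strand), 196 bases before it in Gfap (chr10:88361662-88361911, minus strand) and 132 bases before it in Gjb6 (chr15:35408963-35409212, minus strand).
Serpina3n: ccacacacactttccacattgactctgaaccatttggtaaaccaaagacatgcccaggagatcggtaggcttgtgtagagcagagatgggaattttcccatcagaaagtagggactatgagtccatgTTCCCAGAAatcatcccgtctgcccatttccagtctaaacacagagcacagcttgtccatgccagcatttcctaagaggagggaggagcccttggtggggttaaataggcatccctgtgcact
Gfap: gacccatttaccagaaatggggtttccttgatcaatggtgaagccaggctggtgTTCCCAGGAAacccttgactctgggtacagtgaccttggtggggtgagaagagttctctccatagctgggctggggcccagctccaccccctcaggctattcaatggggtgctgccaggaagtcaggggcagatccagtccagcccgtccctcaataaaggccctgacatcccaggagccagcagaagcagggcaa
Gjb6: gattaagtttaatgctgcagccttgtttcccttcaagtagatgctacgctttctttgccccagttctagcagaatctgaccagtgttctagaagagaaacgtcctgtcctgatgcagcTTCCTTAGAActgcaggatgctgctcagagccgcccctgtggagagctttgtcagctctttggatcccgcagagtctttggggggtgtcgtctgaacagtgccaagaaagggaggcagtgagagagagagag
A match describes these letters only, and no binding was measured.

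Values are the authors' deposited log2 values, normalized over all 8 arrays. They are named by the column headings of the deposited table. The scanner files, from which background flags and spot error were taken, are filed under another sample for 7 of 8 arrays. Over 24894 probes each column had the ranking of 1 scan, with a Spearman rho of 0.99971 or more, and that scan's flags and errors were used. The scan recorded under the same sample had a rho of 0.802 to 0.900 for those 7. Every direction below rests on the headings, and counts with the scans as recorded are given beside those of the 10 genes and of the lists. By rank, the scans recorded as dorsal hemisection and C-level control go with the columns of the unstimulated and the 24 h S100A8/A9 culture. The cord counts as recorded therefore compare cultures by rank. The other pairs as recorded likewise hold, by rank, columns other than their names give. Such counts do not recheck the named pairs. Neuron markers went with the headings, as all 14 measured were well above background on both cord arrays, against 7 to 11 of the 14 on the other arrays. Schwann cell genes did not separate the groups this way, with 13 of 13 well above background on the cord and nerve arrays and 11 to 12 of 13 on the culture arrays. These markers do not test which array is which within a tissue. With 1 array per group there is no replicate, so no p-value is given. A ± is the spot error, the technical error from replicate spots of an array, pooled over probes of like signal. It does not hold animal or culture spread. Neighbouring arrays are said to differ beyond it where their difference lies outside the 95% range of their joint spot error. A gene is called higher or lower at a ratio of at least 2-fold, which is 1 on the log2 scale. Levels are never compared between genes, because each probe has its own scale.

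**Figure D1:**
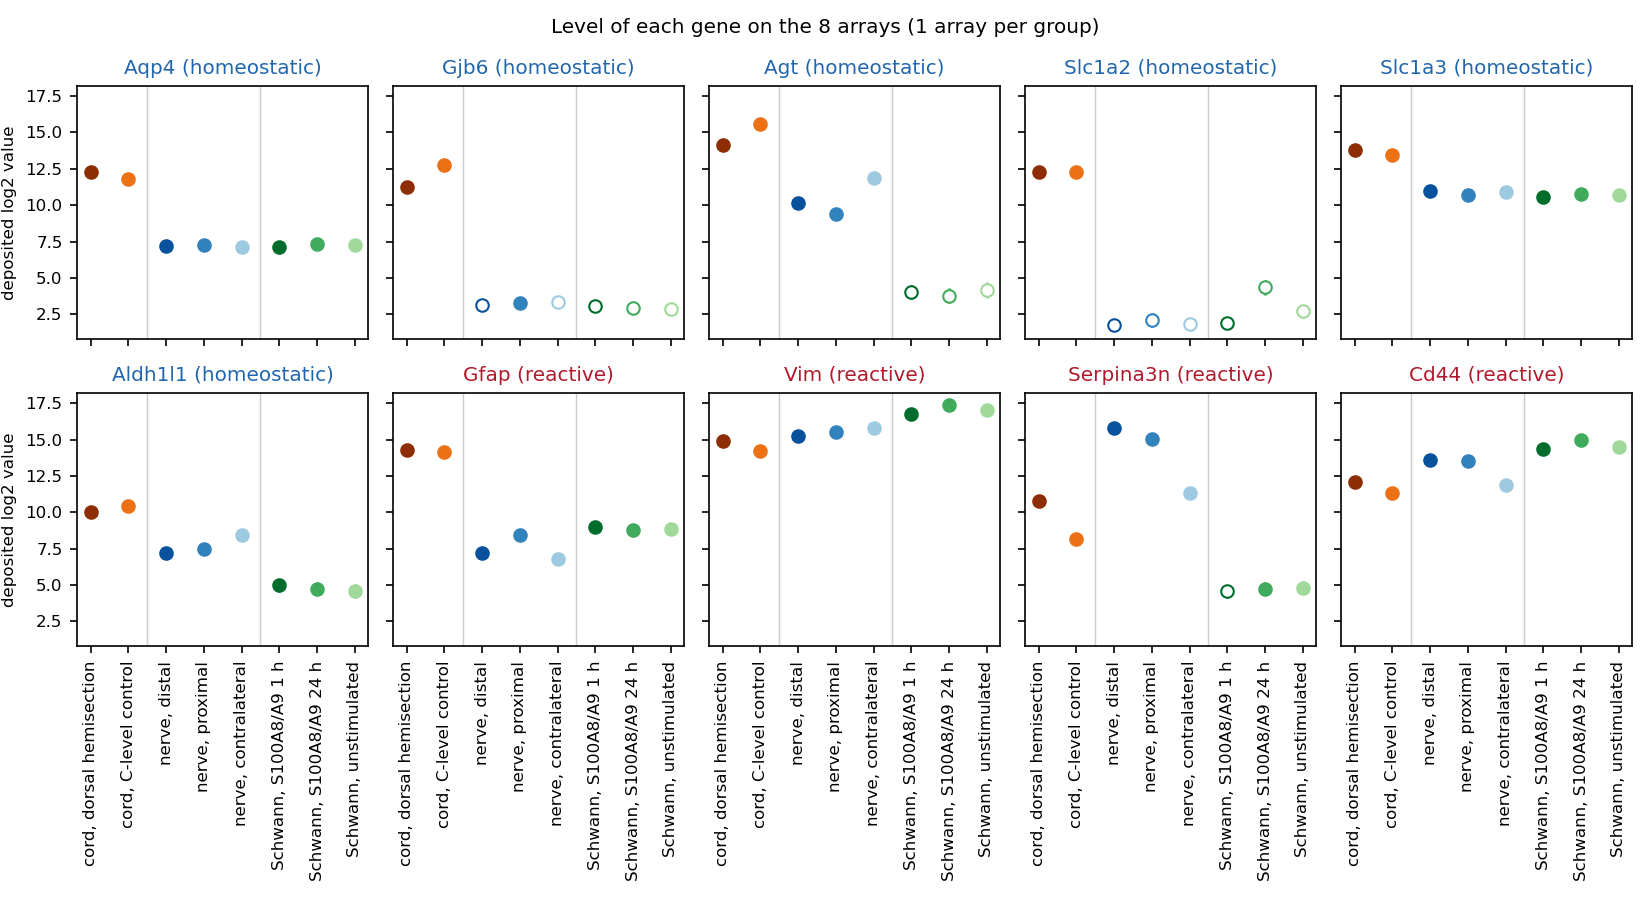
Deposited log2 value (vertical axis) of each of the 10 genes on the 8 arrays, cord at the left, nerve in the middle and Schwann cells at the right of each panel. Filled circles are well above background, open circles are not, and bars, mostly hidden by the circles, are spot errors. Gjb6 and Slc1a2 stood at 11.26 to 12.78 on the cord arrays and below 5 elsewhere, whereas Vim stayed between 14.20 and 17.38 on all 8.

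In the cord pair, reactive and homeostatic genes had unequal ratios, and few of either passed 2-fold. Serpina3n, a secreted serine protease inhibitor made by reactive astrocytes, was 6.10-fold higher in the dorsal hemisection. Gjb6, the gap junction protein connexin 30, was 2.87-fold lower there, and Agt, the angiotensinogen that astrocytes secrete, was 2.72-fold lower. The other 7 genes stayed within 2-fold, Gfap among them. Thus 1 of 10 genes was called higher and 2 were called lower, where 9.62% and 8.97% of all 12032 genes measured in the pair were called higher and lower. Taken by the record of the scans, a pair that by rank holds cultures and not cord, 0 of the 10 were called in either direction.

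Of the reactive genes, Serpina3n stood at 10.78 in the dorsal hemisection, against 8.17 in the C-level control, a log2 ratio of 2.61 ± 0.098. Of all genes measured, 98.8% had a lower ratio. Cd44, the hyaluronan receptor of reactive astrocytes and many other cells, stood at 12.10 in the dorsal hemisection, against 11.30 in the control. Its ratio of 0.80 ± 0.083 lay within 2-fold. This probe has 1 spot per array, so its error is that of other probes of like signal. The other 3 Cd44 probes were dim in cord. Of these, 1 gave 0.46 ± 0.34, and the other 2, not well above background in the control, gave at least 0.094 and at least 0.94. Vim, the intermediate filament vimentin, stood at 14.92 in the dorsal hemisection and 14.20 in the control, a ratio of 0.72 ± 0.024. Gfap, the astrocyte filament protein, stood at 14.27 in the dorsal hemisection and 14.12 in the control. Its ratio of 0.15 ± 0.024 exceeded the spot error, which holds no error of scaling, and 63.2% of all genes had a lower one. The lowest ratio of the 4 reactive genes, here that of Gfap, depended on the scaling. It was 0.30 with the matched scans at their 75th percentile and 0.20 with normexp and quantile normalization.

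Of the homeostatic genes, Gjb6 stood at 11.26 in the dorsal hemisection, against 12.78 in the C-level control, a log2 ratio of -1.52 ± 0.026 over 10 spots per array. Agt stood at 14.14 in the dorsal hemisection, against 15.58 in the control, a ratio of -1.44 ± 0.054. These were the only 2 of the 6 past 2-fold. Aldh1l1, a folate enzyme used as a general astrocyte marker, stood at 10.00 and 10.41 in the dorsal hemisection and the control, a ratio of -0.41 ± 0.067. The glutamate transporters did not move with Gjb6 and Agt. Slc1a2 (GLT-1) stood at 12.25 in the dorsal hemisection and 12.30 in the control, and its 2 probes gave ratios of -0.05 ± 0.059 and -0.04 ± 0.059. Slc1a3 (GLAST) stood at 13.77 in the dorsal hemisection and 13.43 in the control, with ratios of 0.34 ± 0.054 and 0.73 ± 0.095 for its 2 probes.

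The 3 probes of Aqp4, the water channel of astrocyte endfeet, disagreed in sign. The chosen probe stood at 12.30 in the dorsal hemisection and 11.81 in the control, a ratio of 0.49 ± 0.059. Another probe gave 0.47 ± 0.083, from 11.57 in the dorsal hemisection and 11.09 in the control. The probe with the highest cord signal gave -0.89 ± 0.054, from 15.65 in the dorsal hemisection and 16.54 in the control. The difference between probes was thus larger than their spot error, and no direction is drawn for Aqp4. The mean over the 3 probes was 0.02.

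**Figure D2:**
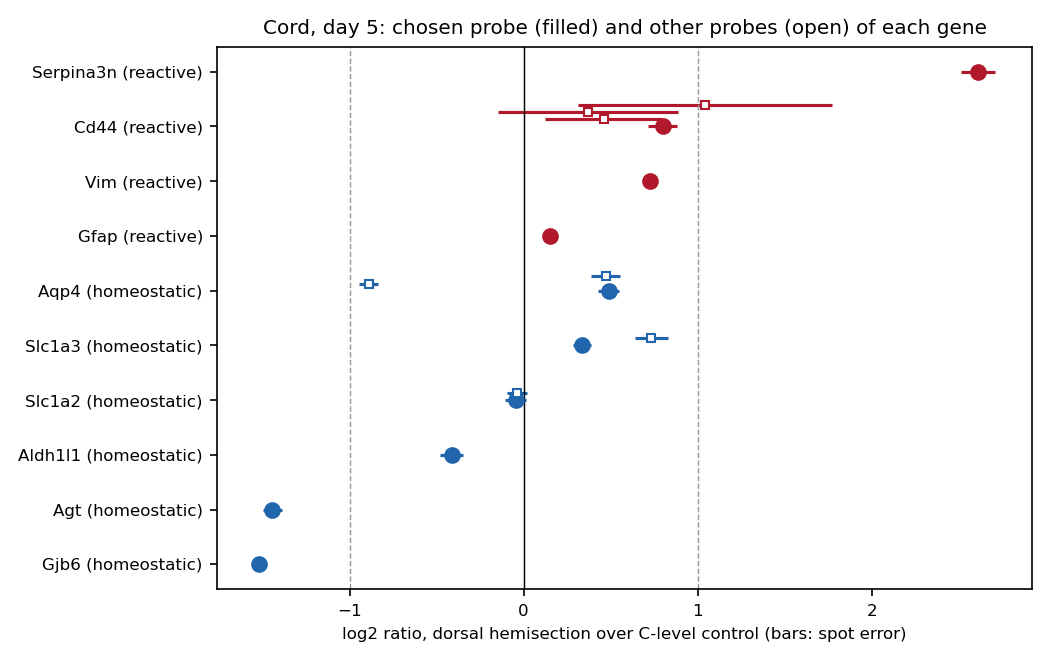
Log2 ratio (horizontal axis) of the dorsal hemisection over the C-level control for all 17 probes of the 10 genes. Filled circles are the chosen probes, open squares the other probes, bars the spot errors, and dashed lines mark 2-fold. Of the open Cd44 squares, 2 are measured values whose control side was not well above background. Serpina3n at 2.61 lay past the upper line, Agt at -1.44 and Gjb6 at -1.52 past the lower one, and the Aqp4 probes lay on both sides of 0.

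As groups, the 4 reactive genes had a median cord ratio of 0.76 with all 4 above 0, and the 6 homeostatic genes had a median of -0.23 with 4 of 6 below 0. The median of all genes was -0.05. Slc1a2, 1 of the 4 below 0, was also at -0.05, within its spot error. Aqp4, for which no direction is drawn, entered with its chosen probe at 0.49, while its probe with the highest cord signal gave -0.89. The difference of the medians was 0.99, and 0.92 to 1.02 with the other scalings of the matched scans or with all probes averaged. A shift common to all genes of an array cancels in this difference, so scaling of that kind could not change it. The difference was 0.04 with the scans as recorded, a pair that by rank holds cultures and not cord.

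Larger lists of the same kinds give the setting of these values. Like the 10 genes, they were chosen with earlier results of these data known, so they are no independent check. Of 34 other astrocyte genes listed 32 were measured, all but Sox9 and Hepacam. Of these 1 was higher and 3 were lower in the dorsal hemisection, where 9.62% and 8.97% of all genes were higher and lower. The count of lower genes was thus near that of all genes. The median log2 ratio was -0.32, with 25 of 32 below 0 and 7 above. As recorded, 0 were higher and 1 was lower. Among the lower were Itih3 at -1.85 ± 0.054 and Slc25a18, a mitochondrial glutamate carrier, at -1.31 ± 0.087. The higher one was the urea transporter Slc14a1 at 1.12 ± 0.16. Just short of 2-fold were the amino acid transporter Slc7a10 at -0.99 ± 0.062 and the tight junction protein Cldn10 at -0.82 ± 0.077. Slc4a4, a bicarbonate cotransporter, had -0.75, the glycolytic enzyme Aldoc -0.71 (-1.31 by its other probe), Pla2g7 -0.70 and Entpd2, an ectonucleotidase, 0.72. Apart from Slc14a1 and Entpd2, the 10 largest ratios of this list were all below 0.

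Of 36 measured among 40 other genes known to go up in reactive astrocytes, 16 were higher and 0 were lower in the dorsal hemisection. Of all genes, 9.62% were higher and 8.97% lower. The median log2 ratio of the list was 0.88, with 3 of its ratios bounds. The matrix protein tenascin C (Tnc) stood at 9.32 in the dorsal hemisection and 5.74 in the control, a ratio of 3.58 ± 0.21. Cd14, a co-receptor for bacterial lipopolysaccharide, had 2.10 ± 0.072 and the pentraxin Ptx3 2.02 ± 0.21. Nestin (Nes), a filament of progenitors and reactive astrocytes, stood at 12.99 in the dorsal hemisection and 11.18 in the control, a ratio of 1.81 ± 0.057. This is a larger ratio than those of the filaments Vim and Gfap in the same pair. The interferon-responsive Gbp2 had 1.68 and the immunoproteasome subunit Psmb8 1.49. Sphk1, a kinase that makes sphingosine 1-phosphate, had 1.78 ± 0.46, the metalloreductase Steap4 1.55, the protease inhibitor Timp1 1.51 and the membrane protein Emp1 1.45. Of this list, 0 were higher and 1 was lower with the scans as recorded.

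Markers of other cells moved with the same pair, in which 9.62% of all genes were higher and 8.97% lower. Of 15 microglia and macrophage genes 11 were higher in the dorsal hemisection and 0 lower, with a mean level of 12.57 there and 11.15 in the control, led by Cd68 at 3.88, the complement chain C1qc at 2.26 and Trem2 at 1.98. Of 11 fibroblast genes 7 were higher and 1 lower, with mean levels of 12.58 in the dorsal hemisection and 10.79 in the control, led by Postn at 5.30, Col1a1 at 4.18 and Lum at 2.97. Of 13 Schwann cell genes 6 were higher and 0 lower, with mean levels of 10.11 in the dorsal hemisection and 9.05 in the control, with the myelin genes Pmp2 at 3.41 and Prx at 2.73 among the higher. Every gene of these 3 lists was well above background on both cord arrays. Vim and Cd44 are known to be made by such cells too, and the part of these cells in the ratios of the reactive genes was not tested.

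Genes of neurons went the other way, and those of oligodendrocytes did so mostly within 2-fold. Of 14 neuron genes 10 were lower in the dorsal hemisection and 0 higher, with mean levels of 10.40 there and 11.71 in the control. The synaptic Snap25 had -2.36, the inhibitory transmitter transporter Slc32a1 -2.13 and the GABA enzyme Gad1 -1.93. Of 15 oligodendrocyte genes 2 were lower and 0 higher, where 8.97% of all genes were lower and 9.62% higher. Their median was -0.42, with 14 of 15 below 0, and Ermn had -1.08, Mog -1.05 and Mag -0.95. In these bulk arrays, fewer cells of a type and less RNA per cell cannot be told apart. Of 10 cell cycle genes 9 were higher and 0 lower, with a median of 2.54. Among them, the mitotic cyclin Ccnb1 had 3.36, its kinase Cdk1 3.32 and cyclin Ccna2 3.11. Of 9 endothelial genes 1 was higher, Eng at 1.29, where 9.62% of all genes were higher. Emcn had 0.88 and Pecam1 0.85. As recorded, 0 genes of these other-cell and cell cycle lists were called in the cord pair.

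**Figure D3:**
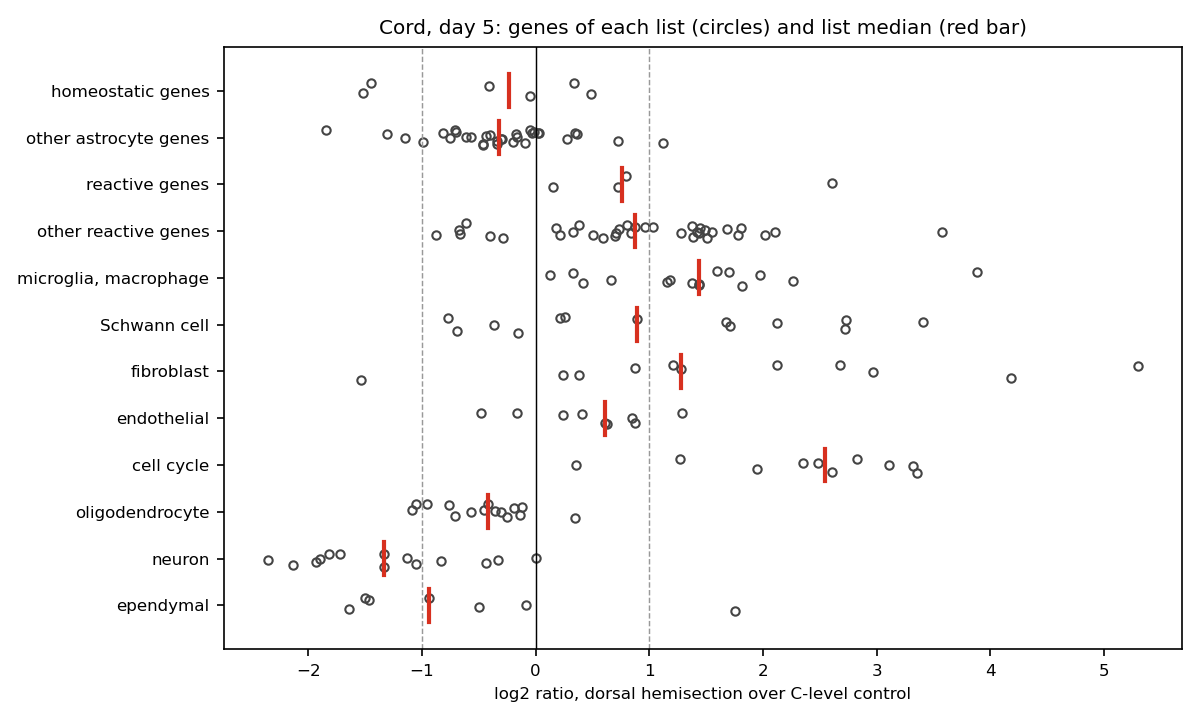
Log2 ratio (horizontal axis) of the dorsal hemisection over the C-level control for each gene of 12 lists. Circles are genes, a few of them bounds, the red bar is the list median and dashed lines mark 2-fold. The medians run from 2.54 for cell cycle genes to -1.33 for neuron genes, with the reactive genes at 0.76 and the homeostatic genes at -0.23.

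The cord arrays stood apart from nerve for all 6 homeostatic genes, while the reactive genes were divided. In the C-level control against the contralateral nerve, 7 of the 10 genes were higher and 2 were lower, where 17.5% of all 12027 genes measured were higher and 19.2% lower. Gjb6 was at least 478-fold higher and Slc1a2 at least 343-fold higher, as neither was well above background in the contralateral nerve. Gfap stood at 14.12 in the C-level control and 6.76 in the contralateral nerve, 164-fold higher. Aqp4 had a log2 ratio of 4.66 ± 0.17 by the chosen probe, and at least 12.66 and at least 7.22 by the other 2, which were not well above background in the contralateral nerve. Agt had 3.71 ± 0.077 and Slc1a3 2.50 ± 0.077. Aldh1l1 was 3.99-fold higher. Serpina3n stood at 8.17 in the control cord and 11.35 in the contralateral nerve, and Vim at 14.20 in the control cord and 15.81 in the nerve. Both were lower in cord, with ratios of -3.18 and -1.61, and Cd44 was within 2-fold at -0.55 ± 0.11. All 7 higher genes and Vim have the opposite sign with the scans as recorded. By rank, that pair holds the 24 h S100A8/A9 culture over the dorsal hemisection, not cord over nerve.

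Against the unstimulated Schwann cells, 8 of the 10 genes were higher in the C-level control cord and 2 were lower, with 22.4% and 26.2% of all 11954 genes measured higher and lower. Agt was at least 2519-fold higher, Gjb6 at least 361-fold and Slc1a2 at least 259-fold, since none was well above background in the culture. Aldh1l1 had a log2 ratio of 5.84 ± 0.47, Gfap 5.29 ± 0.034, Serpina3n 3.36 ± 0.48 and Slc1a3 2.75 ± 0.059. Aqp4 had 4.58 ± 0.12 by the chosen probe, and at least 12.26 and at least 6.81 by the other 2. Cd44 at -3.20 ± 0.079 and Vim at -2.84 ± 0.024 were lower in cord. The median of all genes in this pair was -0.24 in the deposited values and -0.0044 when the matched scans were scaled to their 75th percentile, a shift small beside these ratios. The signs of Aqp4, Gjb6, Agt, Aldh1l1, Serpina3n, Vim and Cd44 are turned with the scans as recorded. By rank, that pair holds the 24 h S100A8/A9 culture over the proximal nerve.

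The 10 genes differ in how far they are on outside cord. Slc1a2 was well above background on the 2 cord arrays alone of the 8, by both of its probes. In Schwann cells at 24 h it stood at 4.36, with 1 of its 2 spots above background. Gjb6 passed on the cord arrays and on the proximal nerve, there at 3.29 with 6 of 10 spots, a level that did not differ beyond spot error from 3.14 in the distal and 3.35 in the contralateral nerve. Agt was on in cord and nerve and not well above background in any Schwann cell culture, where it stood at 4.04 at 1 h, 3.79 at 24 h and 4.17 unstimulated. Aldh1l1 was on everywhere, at 7.20 to 8.41 in nerve and at 4.57 to 4.98 in the cultures. Of 32 other astrocyte genes, 26 to 27 were well above background on each nerve array and 21 to 22 on each culture array, so presence alone did not separate cord from the other samples for most of that list.

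Slc1a3 was on in all 8 samples and nearly level outside cord. It stood at 10.99 in the distal, 10.72 in the proximal and 10.93 in the contralateral nerve, and at 10.54, 10.78 and 10.68 in the cultures at 1 h, at 24 h and unstimulated. From the highest of these to the unstimulated culture, each neighbour in the order lay within the spot error. The chosen Aqp4 probe likewise passed background on all 8 arrays, at 7.19, 7.26 and 7.16 in distal, proximal and contralateral nerve and at 7.11, 7.35 and 7.24 in the cultures. No neighbouring pair of these 6 differed beyond spot error. The other 2 Aqp4 probes were not well above background outside cord, except 1 of them in the proximal nerve at 4.02, so expression of Aqp4 in nerve and Schwann cells rests on 1 probe of 3.

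Gfap was on in every sample, with the cultures above the nerve. It stood at 8.99 at 1 h, 8.78 at 24 h and 8.83 unstimulated, against 14.27 and 14.12 in cord. Vim was lowest in cord and highest in the cultures, at 16.74 at 1 h, 17.38 at 24 h and 17.03 unstimulated, and no 2 neighbours in its order lay within the spot error. Cd44 had the same order of tissues except that the contralateral nerve at 11.85 lay below the dorsal hemisection at 12.10. Serpina3n ran the other way: it was highest in cut nerve and lowest in the cultures, at 4.57 (not well above background), 4.76 and 4.81 at 1 h, 24 h and unstimulated, with no pair of cultures apart by more than the spot error.

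Contralateral nerve and unstimulated Schwann cells differed for 6 of the 8 genes measured in that pair. In the nerve, 3 were higher, with 19.5% of all 11733 genes measured higher: Agt at least 193-fold, Serpina3n 92.6-fold and Aldh1l1 14.3-fold. Another 3 were lower in the nerve, with 20.9% of all genes lower: Cd44 at a log2 ratio of -2.65 ± 0.11, Gfap at -2.06 ± 0.078 and Vim at -1.23 ± 0.033. Slc1a3 at 0.25 ± 0.081 (-0.50 ± 0.28 by its other probe) and Aqp4 at -0.08 ± 0.19 were within 2-fold. Microglia and macrophage genes, of which 15 of 15 were well above background in the nerve and 8 of 15 in the culture, and endothelial genes, 9 of 9 in the nerve and 4 of 9 in the culture, differed between the same arrays, and their part in these ratios was not tested. With the scans as recorded the signs of Gfap and Serpina3n are turned. By rank, that pair holds the dorsal hemisection over the proximal nerve.

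On day 1 after the cut, 3 genes of reactive astrocytes were higher in injured nerve, a tissue without astrocytes. Serpina3n stood at 15.77 in the distal and 15.02 in the proximal segment, against 11.35 in the contralateral nerve, which is 21.5-fold and 12.8-fold higher. Cd44 stood at 13.58 in the distal and 13.50 in the proximal segment, against 11.85 in the contralateral nerve, which is 3.32-fold and 3.13-fold higher. Of the other Cd44 probes, 1 gave 2.74-fold distally and 2.79-fold proximally. The other 2, not well above background in the contralateral nerve, gave at least 7.42-fold and at least 7.67-fold distally, and at least 5.92-fold and at least 5.87-fold proximally. Gfap was 3.16-fold higher in the proximal segment, at 8.42 against 6.76 in the contralateral nerve, and stood at 7.22 in the distal segment, a log2 ratio of 0.45 ± 0.080. Vim stood at 15.24 in the distal, 15.54 in the proximal and 15.81 in the contralateral nerve, with ratios of -0.57 ± 0.033 and -0.27 ± 0.033 that do not pass 2-fold. Both segments share the contralateral array, so their ratios are not independent of each other.

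The homeostatic genes that nerve expresses were level or lower. Agt stood at 10.17 in the distal and 9.38 in the proximal segment, against 11.87 in the contralateral nerve, which is 3.25-fold and 5.64-fold lower. Aldh1l1 stood at 7.20 in the distal, 7.50 in the proximal and 8.41 in the contralateral nerve, with ratios of -1.21 ± 0.12 (2.32-fold lower) and -0.92 ± 0.11, the second within 2-fold. Slc1a3 had ratios of 0.06 ± 0.078 distally and -0.21 ± 0.081 proximally, and 0.38 in both segments by its dimmer probe. Aqp4 had 0.04 ± 0.18 and 0.11 ± 0.20. Gjb6 and Slc1a2 gave no ratio, as they were at or near background on these arrays. Of the 8 genes measured in the distal segment 2 were higher and 2 lower, with 12.7% and 14.1% of all 11939 genes measured. Of the 9 in the proximal segment 3 were higher and 1 lower, with 10.5% and 11.7% of all 12068 genes measured. With the scans as recorded, Serpina3n and Gfap have the opposite sign in the proximal segment, and 7 of the 10 genes are lower distally and 8 proximally. By rank, those pairs hold the distal nerve and the 1 h S100A8/A9 culture, each over the dorsal hemisection.

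**Figure D4:**
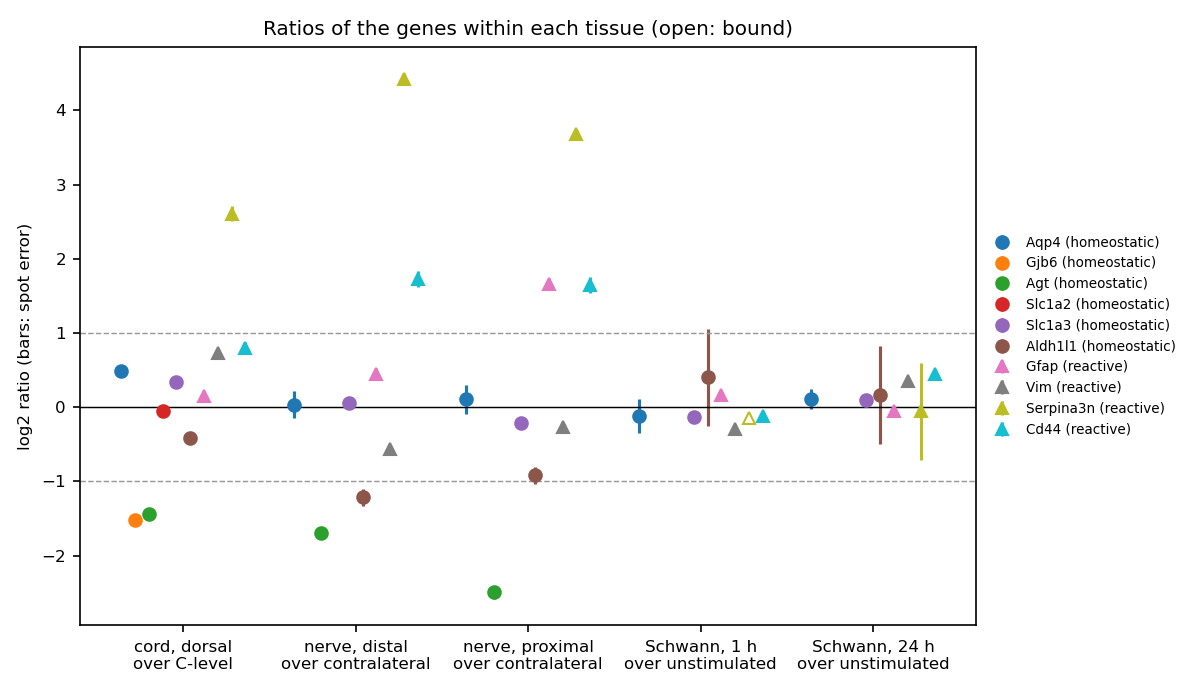
Log2 ratio (vertical axis) of the measured genes in the 5 comparisons within a tissue. Circles are homeostatic and triangles reactive genes, bars are spot errors, the open triangle is an upper bound and dashed lines mark 2-fold. Serpina3n was at 2.61 in cord, 4.42 in distal and 3.68 in proximal nerve, Agt was below -1 in all 3, and no gene passed 2-fold in the cultures.

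The larger lists were counted in nerve as well. Of all genes measured, 12.7% were higher and 14.1% lower in the distal segment, and 10.5% and 11.7% in the proximal segment. Of 26 other astrocyte genes measured in the distal segment 1 was higher and 15 were lower, with a median log2 ratio of -1.28. Pla2g7 at 2.91 was the higher one, and Aldoc at -2.80 and Ttyh1 at -2.64 were among the lowest. In the proximal segment 2 of 27 were higher and 11 lower, with a median of -0.58. Slc7a10 had -2.52, Aldoc -2.20 and Pla2g7 2.55 there. As recorded, 0 were higher and 28 lower distally, and 0 were higher and 30 lower proximally. By rank, both pairs then have the dorsal hemisection as reference.

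Of 37 other reactive genes in the distal segment 12 were higher and 2 lower, with a median of 0.53. In the proximal segment 12 were higher and 1 lower, with a median of 0.69. The shares over all genes were 12.7% and 14.1% distally, and 10.5% and 11.7% proximally. Ptx3 stood at 12.63 in the distal and 12.84 in the proximal segment, against 6.73 in the contralateral nerve, with ratios of 5.90 ± 0.17 and 6.11 ± 0.17. Aspg had 2.66 ± 0.42 distally and 3.62 ± 0.41 proximally, and Sphk1 at least 3.37 and at least 3.08. Cd14 had 2.31 distally and Timp1 2.44 proximally. As recorded, 15 were higher and 6 lower distally, and 8 were higher and 20 lower proximally, again with the dorsal hemisection as reference by rank. Cord and distal nerve shared 8 of the higher genes, 50% of the 16 in cord and 66.7% of the 12 in nerve, among them Ptx3, Cd14, Sphk1, Timp1, Psmb8 and Emp1. Over all genes the shared ones were 48.8% of those higher in cord and 37.2% of those higher in distal nerve. Cord and proximal nerve shared 6, 37.5% of the 16 and 50% of the 12, where all genes gave 40.7% and 37.1%. The share of the cord genes was thus near that of all genes in both segments. The share of the nerve genes was above that of all genes, 66.7% against 37.2% distally and 50% against 37.1% proximally. It rests on 12 genes in each segment. Tnc and Nes, called in cord, were not called higher in the distal segment.

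Beside these ratios, 8 of 15 microglia and macrophage genes were higher and 0 lower in the distal segment, with mean levels of 12.43 there and 11.68 in the contralateral nerve. Of all genes, 12.7% were higher and 14.1% lower distally, and 10.5% and 11.7% proximally. In the proximal segment 5 of 15 were higher and 0 lower, with a mean level of 12.07. Of 13 Schwann cell genes, 1 was higher and 9 were lower distally, with a median of -1.81, and 1 was higher and 6 were lower proximally, with a median of -0.94. Of 11 fibroblast genes 6 were lower and 0 higher in either segment, with medians of -1.13 distally and -1.23 proximally. Every gene of these 3 lists was well above background on all nerve arrays, and their part in the ratios was not tested. As recorded, with the dorsal hemisection as reference by rank, 3 microglia and macrophage genes were higher and 7 lower distally. Proximally, 0 were higher and 14 lower. The Schwann cell genes were then 8 higher and 2 lower distally and 6 higher and 5 lower proximally, and the fibroblast genes 6 higher and 1 lower distally and 4 higher and 6 lower proximally.

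**Figure D5:**
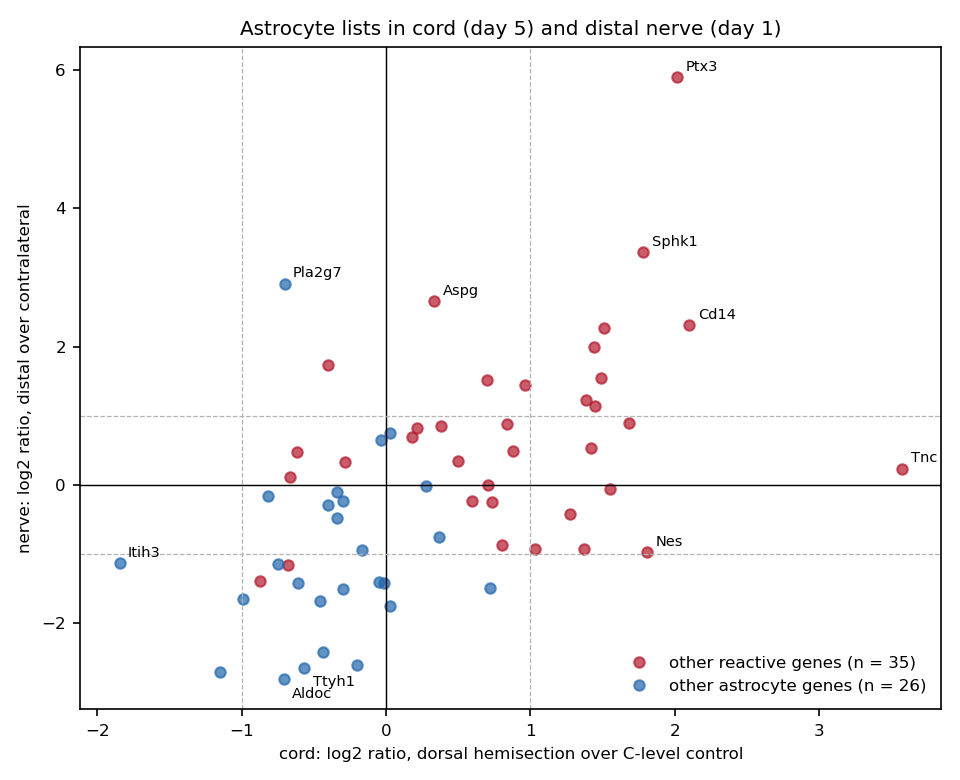
Log2 ratio in cord (dorsal hemisection over C-level control, horizontal axis) and in nerve (distal over contralateral, vertical axis) for 35 other reactive and 26 other astrocyte genes measured in both. Each point is a gene, dashed lines mark 2-fold, and some of the genes farthest out are named. Ptx3 at 2.02 and 5.90 was high in both pairs, and Tnc, at 3.58 in cord, was not past 2-fold in nerve.

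None of the 10 genes passed 2-fold in Schwann cells given S100A8/A9. At 1 h, 0 of 7 measured genes were called in either direction, with 1.4% and 1.11% of all 10690 genes higher and lower. Vim had a log2 ratio of -0.30 ± 0.024, Gfap 0.16 ± 0.038, Slc1a3 -0.14 ± 0.065 and Cd44 -0.12 ± 0.075. Aqp4 at -0.12 ± 0.23 and the dim Aldh1l1 at 0.40 ± 0.65 were within their spot error. At 24 h, 0 of 7 were called, with 0.289% and 0.298% of all 10728 genes higher and lower. Few genes of any kind passed 2-fold at that time. With the scans as recorded, 1 gene is higher and 3 are lower at 1 h, and 7 are higher and 3 lower at 24 h. By rank, those pairs hold the contralateral nerve and the C-level control cord, each over the proximal nerve.

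Cd44 and Vim stood near the upper end of all ratios at 24 h. Cd44 was at 14.94 at 24 h and 14.50 unstimulated, a ratio of 0.44 ± 0.073, and 96.7% of genes had a lower one. Vim was at 17.38 at 24 h and 17.03 unstimulated, a ratio of 0.35 ± 0.023, with 94.0% of genes lower. At 1 h the chosen probes of both were below the unstimulated culture. The other 3 Cd44 probes, all dimmer, gave -0.13, 0.10 and -0.01 at 1 h and 0.06, 0.43 and -0.23 at 24 h, with spot errors of 0.27 to 0.42, so no direction is drawn from them. Slc1a3 had 0.10 ± 0.065 at 24 h, Gfap -0.05 ± 0.037, Aqp4 0.12 ± 0.13, Aldh1l1 0.16 ± 0.66 and Serpina3n -0.05 ± 0.66.

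Of 22 other astrocyte genes measured in the cultures, 0 were higher and 3 lower at 1 h, with a median of -0.06. Over all genes, 1.4% were higher and 1.11% lower at 1 h, and 0.289% and 0.298% at 24 h. Entpd2 stood at 11.62 at 1 h and 14.84 unstimulated, a log2 ratio of -3.22 ± 0.077, and its other 2 probes gave -3.14 and -2.95. Gpr37l1, a receptor of glia, had -1.42 ± 0.23 and Ndrg2 -1.25 ± 0.053. Fgfr3 was within 2-fold at -0.93. These 3 were not among the genes past 2-fold at 24 h, when 1 of the 22 was higher, the dim S1pr1 at 1.12 ± 0.50, and 0 were lower. Fam107a had 0.57 ± 0.27, Bmpr1b 0.50 ± 0.50 and Ppp1r3c 0.45 ± 0.23 at 24 h. Of 26 other reactive genes, 0 were called at either time by the chosen probes. The largest ratios at 1 h were those of Cd14 at 0.96 ± 0.30, Cp at -0.82, Srgn at 0.69 and Lgals3 at -0.59. At 24 h they were those of Tgm1 at 0.91 ± 0.66, Cp at 0.53, Stat3 at -0.32 and S100a10 at 0.29. The other probe of Cp gave -1.32 ± 0.23 at 1 h, past 2-fold, and 0.12 ± 0.13 at 24 h. As recorded, 11 other astrocyte genes were higher and 2 lower at 1 h, and 30 were higher and 1 lower at 24 h. The other reactive genes as recorded were 1 higher and 14 lower at 1 h, and 4 higher and 22 lower at 24 h. By rank, those pairs hold nerve or cord and no culture. The 1 h array had no unstimulated culture of its own time, so time in culture and stimulation cannot be told apart there.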

How the data were processed

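Total RNA from 8 samples was hybridised to one-colour Agilent arrays, all on 1 slide and in 1 scan. The deposited scanner files give linear spot intensity, background-subtracted in Feature Extraction, which is version 10.7.3.1 in the deposited headers and 10.5 in the submitters' processing notes. The deposited value table holds the authors' log2 values for 24938 rows, 24894 of them probes and 44 controls. Every column has the median 8.03, so the arrays were scaled to one another by the authors, and the sources used here do not give the method.

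The 10 genes and all lists were chosen with earlier results of these data known. Accessions were matched without versions to RefSeq (GRCr8, while the headers name rn4, so the files' coordinates were not used), which named 15213 of the probes in the table, for 12765 genes. The probe with the highest average log2 value stood for its gene, and 2240 genes had several probes. A probe was well above background where more than 0.5 of its spots were flagged so, on the scan that ranks as the column. Between 65.1% and 75.8% of probes passed per array, and no spot of the 10 genes was saturated. The number of arrays, 1 per group, limits the precision.

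A ratio needs 1 of its arrays well above background. A dim side was set to the lowest value of any probe well above background on that array, or its own if higher, which gives a bound ("at least N-fold"). The spot error is the SD between replicate spots, pooled in 10 bins of signal, divided by the root of the number of spots. The ratio step was tested on simulated data. Python 3.11.15, pandas 2.3.3 and numpy 2.4.6 were used, with limma 3.58.1 in R 4.3.3 for 1 alternative.

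Named genes are the 10, up to 10 genes with the largest absolute log2 ratio of the astrocyte list and of the reactive list in cord, up to 4 of each in the other comparisons within a tissue, up to 3 of each other list in cord, and the 3 genes with the nearest profile to Gfap, Aqp4, Slc1a2 and Cd44. Genes called in both cord and nerve were named for their overlap, after their values were seen. Some genes that this rule names are not reported here. Alternatives were the matched scans at the 75th percentile, the matched scans with normexp (offset 50) and quantile normalization, the scans as recorded, the mean of all probes, no filter, and both arrays above background. The files give a median and not a mean foreground signal, so normexp used the median.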

Additional observations from a re-analysis of the deposited data

How the results depend on the processing

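No paired analysis was possible because each group has 1 array; for the same reason no replicate could be left out, and the slide could not be a block, as all arrays lay on 1. Of 36 ratios of the 10 genes past 2-fold over the 8 comparisons, 36 kept their sign and 36 stayed past 2-fold for matched scans scaled to the 75th percentile, 36 and 35 with normexp, 36 and 36 with all probes averaged, and 36 and 36 with no filter. Of the 30 with both arrays above background 30 did so. With the scans as recorded 14 of 33 kept their sign, 10 stayed past 2-fold and 19 turned; by rank, each pair then holds other columns than its name gives.

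As recorded, the genes of the 10 called higher and lower numbered 0 and 0 in cord, 1 and 3 in cultures at 1 h, 7 and 3 at 24 h, 2 and 8 for cord over nerve; 7 were lower in distal and 8 in proximal nerve, 2 higher for cord over Schwann cells and 7 higher for nerve over Schwann cells. Of other astrocyte genes, 0 were higher and 1 lower in cord, 0 and 28 in distal nerve, 0 and 30 in proximal nerve. Of other reactive genes, 0 were higher and 1 lower in cord, and 6 were lower in distal and 20 in proximal nerve. The turned ratios were Gfap -5.28 and Serpina3n -6.79 in proximal nerve; Aqp4 -5.14, Gjb6 -7.42, Agt -10.21, Slc1a2 -7.69, Slc1a3 -2.78, Aldh1l1 -5.85, Gfap -5.50 and Vim 2.53 for cord over nerve; Aqp4 -0.29, Gjb6 -0.094, Agt -5.61, Aldh1l1 -3.41, Vim 1.63, Serpina3n -11.01 and Cd44 1.45 for cord over Schwann cells; and Gfap 5.66 and Serpina3n -4.43 for nerve over Schwann cells.

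With normexp, 0 other astrocyte genes were higher in cord, 1 of the 10 was lower in distal nerve and 0 other reactive genes were lower in proximal nerve. With no filter, 1 other reactive gene was lower in cord, 2 other astrocyte genes were higher in distal nerve, and 1 of the 10, Slc1a2, was higher at 24 h. With both arrays above background, 1 other astrocyte gene was higher in proximal nerve and 5 of the 10 were higher in cord over Schwann cells, where fewer genes are tested. The cause of the other changes was not tested. Signal over background limits Gjb6, Slc1a2 and, in cultures, Agt, Aldh1l1 and Serpina3n.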

Other observations

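Ependymal genes, which mark the ciliated cells lining the central canal, were counted in the same cord pair. Of 7 measured, 1 was higher in the dorsal hemisection and 3 were lower, where 9.62% and 8.97% of all genes were higher and lower. Their median log2 ratio was -0.94. Rarres2 had 1.75, Tmem212 -1.50 and Spag6 at most -1.64, where 6 of the 7 genes were well above background in the dorsal hemisection and 7 of 7 in the C-level control.

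The genes whose profile over the 8 arrays lay nearest to those of 4 of the genes were found among 12764 others by the root mean square difference of log2 values, each centred on its own mean. This is a description over 8 arrays of 3 tissues, and most of it is the difference between tissues. For Gfap they were SPATA45 at 0.49, the phospholipase Plcd4 at 0.57 and Sult6b1 at 0.63. For Slc1a2 they were the oligodendrocyte factor Olig2 at 0.87, the matrix proteoglycan Bcan at 0.90 and the calcium-binding protein Calb2 at 0.91. For the chosen probe of Aqp4 they were Calcb at 0.26, Kcne5 at 0.26 and Disp2 at 0.29. For Cd44 they were Ikbkg at 0.17, Mfsd11 at 0.20 and Bach1 at 0.29, whose highest values over the 8 arrays were 5.07, 6.41 and 6.26, near the dim end of the scale.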
